A study of Homo sapiens with 13 samples.

Results

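Gene-desert accessible regions were taken as the regions of either chromatin atlas on chromosomes 1 to 22 that lay over 250 kb from the transcription start site (TSS) of every protein-coding gene of GENCODE release 44 and outside every protein-coding gene body. By this rule 21000 of the 201148 autosomal regions of H82 and 19249 of the 169986 of H146 were desert regions, 40249 of 371134 over both atlases. H82 and H146 are human small cell lung cancer (SCLC) cell lines, H82 of the NEUROD1 subtype (SCLC-N) and H146 of another neuroendocrine subtype, both wild type by their labels. Open chromatin was profiled by ATAC-seq, in which a transposase cuts and tags accessible DNA. The H146 atlas pooled 4 libraries from untreated cells and 3 from cells given FHD-286, an allosteric inhibitor of the SMARCA4 and SMARCA2 ATPases of the SWI/SNF chromatin remodeler, at 100 nM for 14 days. The H82 atlas pooled 3 libraries of each kind, and by the study's methods the H146 libraries came from separate sequencing batches. Peaks of all libraries of a line were merged when within 500 bp, and a region carried a position alone, with no count and no library of origin. Treated cells could therefore not be set against untreated cells, and each line is 1 atlas with no replicate, so every interval given is a 95% counting interval and covers counting error only. Differences between the lines cannot be told apart from differences in number or depth of libraries and in DNA copies.

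Gene deserts are long intervals without protein-coding genes. Some hold enhancers that act over long distances on developmental genes at their borders, while others are poor in regulatory elements and rich in A and T. Distal accessible sites are commonly bound by lineage transcription factors, or by CTCF, the zinc finger protein that anchors chromatin loops. In SCLC-N, NEUROD1 and the homeobox factor OTX2 are lineage factors, and forkhead factors of the FOXA family act in neuroendocrine SCLC.

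The following 5 desert regions show the words compared between the lines, each from hg38, read on the plus strand, with the word or its reverse complement in capitals. The rule took, among regions of at most 300 bp, the one with the most copies of its word, in the classes whose word contents are compared further on, and the first in genome order where several had as many. The first was an H82 region without an H146 counterpart at chr22:11043057-11043291, 4485 kb from the nearest TSS, with 5 copies of TAATCC, the core word of OTX2, spaced 49 bp apart.
H82-only, OTX2 word at a fixed step: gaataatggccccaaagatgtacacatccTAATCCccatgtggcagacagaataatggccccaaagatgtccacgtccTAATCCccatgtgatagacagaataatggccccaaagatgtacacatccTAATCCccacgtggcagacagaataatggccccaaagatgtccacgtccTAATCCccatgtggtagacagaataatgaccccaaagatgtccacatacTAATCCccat
Because the copies in that region recur at a fixed step, a further H82-only region was chosen after its sequence was seen, in a stretch without assembly gaps, at chr1:187171571-187171811 between PLA2G4A and BRINP3, with 3 copies.
H82-only, OTX2 word: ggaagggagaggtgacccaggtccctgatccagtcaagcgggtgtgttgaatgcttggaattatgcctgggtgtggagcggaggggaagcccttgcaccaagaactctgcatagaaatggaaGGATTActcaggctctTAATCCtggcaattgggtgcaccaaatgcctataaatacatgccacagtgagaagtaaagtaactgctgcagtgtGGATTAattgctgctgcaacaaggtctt
An H82-only region between CCDC85A and VRK2 at chr2:57570542-57570790 held 3 copies of CAGATG, the E-box form preferred by NEUROD1.
H82-only, NEUROD1-type E-box: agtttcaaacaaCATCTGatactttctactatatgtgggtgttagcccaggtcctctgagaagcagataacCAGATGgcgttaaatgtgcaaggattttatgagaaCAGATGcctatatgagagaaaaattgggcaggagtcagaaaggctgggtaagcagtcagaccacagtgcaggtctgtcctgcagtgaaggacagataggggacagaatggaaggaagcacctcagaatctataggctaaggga
An H146-only region between AMY1C and PRMT6 at chr1:106134655-106134914 held 2 copies of the forkhead word TGTTTAC.
H146-only, FOXA word: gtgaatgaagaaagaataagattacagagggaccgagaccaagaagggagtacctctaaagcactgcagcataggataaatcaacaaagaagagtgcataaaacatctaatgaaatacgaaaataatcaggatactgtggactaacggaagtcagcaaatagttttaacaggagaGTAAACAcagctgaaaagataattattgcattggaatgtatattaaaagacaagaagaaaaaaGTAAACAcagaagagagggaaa
A shared region between SOX2 and ATP11B at chr3:182248493-182248755 held 2 matches of a CTCF core word (CCA, 2 free bases, AG, 2 free bases and GGC), and the first of these also contains CAGATG.
Shared, CTCF word: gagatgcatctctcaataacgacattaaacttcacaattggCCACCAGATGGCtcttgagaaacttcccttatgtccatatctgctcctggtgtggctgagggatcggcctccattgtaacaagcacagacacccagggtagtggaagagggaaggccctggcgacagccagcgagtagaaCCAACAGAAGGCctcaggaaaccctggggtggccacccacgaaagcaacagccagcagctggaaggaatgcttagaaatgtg
A match shows that the letters are present and not that a factor was bound.

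Desert regions were nearly as frequent in H146 as in H82. The stretches of genome that met the rule numbered 847 and spanned 600 Mb, 21.8% of the 2756 Mb of sequenced autosome. They held 35.0 regions per Mb in H82 and 32.1 in H146, against 83.5 and 69.9 per Mb elsewhere on the autosomes. H82 had 1.09 times as many desert regions as H146 (log2 ratio 0.13, interval 0.10 to 0.15). Over all other autosomal regions the ratio was 1.20 (log2 0.26, interval 0.25 to 0.27), and the intervals of these ratios did not overlap. Weighting the other regions to the chromosomes on which the H146 desert regions lie gave a ratio of 1.17.

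The excess of H82 regions shrank with distance from coding genes. Among intergenic regions 1 to 10 kb from a TSS the H82 to H146 ratio was 1.25 (log2 0.33, interval 0.28 to 0.37). Just outside the rule, at 100 to 250 kb, it was 1.18 (log2 0.24, interval 0.21 to 0.27). It was 1.13 at 250 to 500 kb (log2 0.18, 0.14 to 0.22) and 1.05 at 500 to 1000 kb (log2 0.06, 0.01 to 0.11). Beyond 1000 kb, where H82 had 3396 regions and H146 had 3208, it was 1.06 (log2 0.08, 0.01 to 0.15), with an interval that overlaps the one of the preceding class. Region density fell over the same classes, from 45.4 and 40.2 regions per Mb in H82 and H146 at 250 to 500 kb to 22.2 and 21.0 per Mb beyond 1000 kb. The farthest region of each line lay on the short arm of chromosome 21, 5.50 Mb from a coding TSS in H82 and 5.51 Mb in H146.

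The number ratio differed by chromosome. H82 had more desert regions than H146 on 16 of 22 chromosomes, and the desert log2 ratio was below that of the other regions of the same chromosome on 15 of 22. Chromosome 18 stood lowest, with 1392 desert regions in H82 and 1876 in H146 (log2 ratio -0.43, interval -0.53 to -0.33), and its other regions were also fewer in H82 (log2 ratio -0.32). Chromosome 8 had a desert log2 ratio of -0.15 (interval -0.27 to -0.04). At the other end were chromosome 19, where 3 stretches held 98 and 57 regions (log2 ratio 0.78, interval 0.30 to 1.28), chromosome 20 (0.56, 0.35 to 0.78) and chromosome 7 (0.51, 0.36 to 0.65). Without chromosome 18 the overall ratio was 1.13 in deserts and 1.22 elsewhere. Leaving out each chromosome in turn kept the desert log2 ratio between 0.10, without chromosome 2, and 0.17, without chromosome 18.

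**Figure D1:**
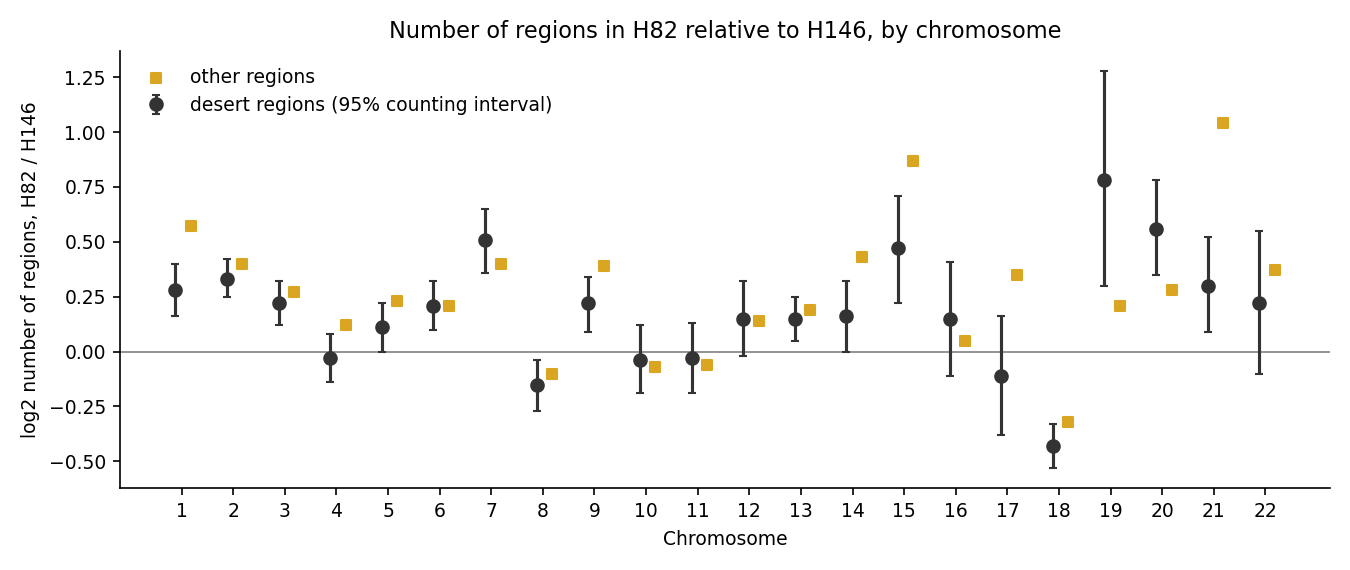
The log2 ratio of H82 to H146 region numbers (vertical axis) on each autosome (horizontal axis), with circles and 95% counting intervals for desert regions and squares for all other regions. Desert ratios run from -0.43 on chromosome 18 to 0.78 on chromosome 19, and on chromosome 21 the other regions reach 1.04 against 0.30 in deserts.

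Desert regions were narrow, and slightly narrower in H82 than in H146. The median width was 431 bp in H82 (interval 426 to 436) and 453 bp in H146 (448 to 459), a difference of -22.0 bp that was 0 bp among regions of at least 500 bp. Other autosomal regions had medians of 490 and 507 bp. The desert median was below that of the other regions on 22 of 22 chromosomes in H82 and on 21 of 22 in H146, and the H146 desert median exceeded that of H82 on 20 of 22. Regions of 1 kb or more made up 14.0% of H82 and 15.5% of H146 desert regions, against 23.6% and 24.2% of the other regions. The difference in region number lay among narrow regions: with the atlases restricted to regions of at least 500 bp, the desert log2 ratio was 0.02 (interval -0.02 to 0.06).

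The widest tail belonged to H82. Desert regions of 10 kb or more numbered 25 in H82 and 5 in H146, and the widest were 132797 bp and 18404 bp. The widest H82 regions, of 133 and 105 kb, lay side by side on chromosome 14 between FLRT2, which encodes a neuronal adhesion protein, and GALC, which encodes the lysosomal enzyme galactosylceramidase. H146 regions covered 1.64% and 0.539% of them. A further H82 region of 56.3 kb lay on the same chromosome between ENSG00000289503 and the potassium channel gene KCNH5, and H146 covered 5.01% of it. The widest H146 regions were an 18.4 kb region on chromosome 2 between RPIA and AQP7B and regions of 17985 and 16957 bp on the short arm of chromosome 21. H82 regions covered from 96.1% to 100% of these 3. The stretch from RPIA to AQP7B holds 74 immune receptor genes, and that of chromosome 21 holds 4 rRNA genes and 6410001 bases of assembly gap.

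Most desert regions of each line were found in both. Of the H82 desert regions, 12783 of 21000 (60.9%, exact binomial interval 60.2 to 61.5%) were overlapped by an H146 region by 1 bp or more, against 59.6% of all autosomal H82 regions. Of the H146 desert regions, 12661 of 19249 (65.8%, 65.1 to 66.4%) were overlapped by H82, against 70.6% of all autosomal H146 regions. Desert regions were thus less often shared than the rest in H146, where the share elsewhere was 71.2% (71.0 to 71.4%), and this held on 20 of 22 chromosomes. In H82 the desert share was above the 59.5% elsewhere (59.2 to 59.7%) in the pooled atlas, but on 9 of 22 chromosomes only. On chromosome 18, 88.2% of H82 and 63.8% of H146 desert regions were shared, and without that chromosome the H82 share was 58.9%. Weighted to the chromosomes of the desert regions, the shares of the other regions were 61.2% in H82 and 70.4% in H146, and weighted to the widths of the desert regions they were 56.3% and 68.0%.

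Sharing rose with region width, and the classes differed between the lines. Of regions exactly 200 bp wide, the narrowest in the atlases, 47.4% of H82 (interval 44.7 to 50.2%) and 37.1% of H146 (34.3 to 40.1%) were shared in deserts, against 39.1% and 43.4% elsewhere. In H146 the desert share then climbed to 83.4% at 500 to 999 bp and to 99.3% at 2 kb or more. In H82 it reached 67.7% and 82.9% in the same classes, while 91.4% of the other H82 regions of 2 kb or more were shared. Shared desert regions were 487 bp wide at the median in H82 and 586 bp in H146, and line-only regions 372 and 317 bp. Line-only H82 desert regions lay a median of 11.2 kb from the nearest H146 region, and 29.3% of them within 5 kb of it. Line-only H146 regions lay a median of 7.59 kb from H82, with 38.9% within 5 kb. Elsewhere on the autosomes line-only regions lay nearer to the other line, at medians of 4.59 kb in H82 and 3.27 kb in H146. Of these, 52.6% and 62.4% were within 5 kb. Regions were also denser there, at 83.5 and 69.9 per Mb in H82 and H146 against 35.0 and 32.1 in deserts. How far density sets these distances was not tested.

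**Figure D2:**
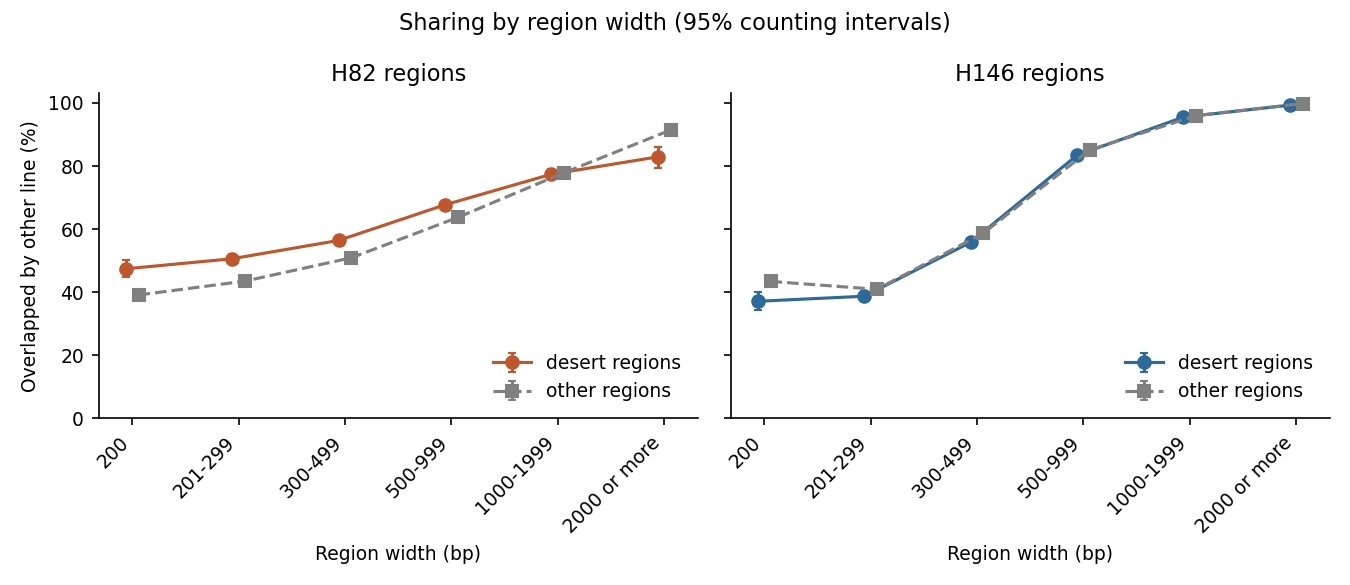
Share of regions overlapped by the other line in percent (vertical axes) by region width in bp (horizontal axes), for H82 in the left and H146 in the right panel, with desert regions as circles, other regions as squares and 95% counting intervals as bars. Narrow H82 desert regions lie above the other H82 regions, at 47.4% against 39.1% in the 200 bp class, and the widest lie below them, at 82.9% against 91.4%. H146 desert regions lie below the other H146 regions in every class, at 55.8% against 58.7% at 300 to 499 bp and 99.3% against 99.8% at 2 kb or more.

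Desert regions lay farther apart than regions near genes and less often had a close neighbour, at a lower density (35.0 and 32.1 against 83.5 and 69.9 regions per Mb), and how far the density sets the neighbour share was not tested. A neighbour of the same atlas lay within 5 kb of 46.7% of H82 desert regions (interval 46.0 to 47.4%) and 45.6% of H146 ones (44.9 to 46.3%), against 70.3% and 65.6% of the other regions. The difference of 1.05 percentage points between the lines in deserts (interval 0.08 to 2.03) had its direction on 12 of 22 chromosomes. It was 2.61 points without chromosome 18 (1.59 to 3.62), and its interval included 0 in 4 alternatives, among them deserts over 500 kb from a TSS (1.04, -0.34 to 2.42). Linking neighbours within 5 kb gave 3705 runs of 2 or more regions in H82 and 3285 in H146, which held 46.5% and 45.4% of the desert regions. Runs of 10 or more regions were more frequent in H146, 29 against 16. The runs were not split by chromosome. On chromosome 18, 68.1% of H146 and 58.9% of H82 desert regions had a neighbour within 5 kb. In windows of 100 kb the count of regions had a variance over mean of 3.10 for H82 and 3.52 for H146. Windows elsewhere, with a higher mean, gave 4.66 and 4.62. Of the desert windows 17.6% and 21.1% of 5010 were empty.

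Close neighbours that were both without a counterpart made up a larger share of the pairs in H82 than in H146. Of 6050 pairs of adjacent H82 desert regions within 5 kb, both members were shared in 47.0% and neither in 23.5%. Of 5449 such H146 pairs, both were shared in 49.4% and neither in 11.4%. Pairs outside deserts are not given, so whether this difference is particular to deserts was not tested. Counted 1 by 1, with or without a neighbour, 60.9% of H82 and 65.8% of H146 desert regions were shared. Elsewhere the shares were 59.5% and 71.2%. Regions with a close neighbour were somewhat more often shared than isolated ones in H146, 68.3% (67.3 to 69.2%) against 63.7% (62.8 to 64.6%), while in H82 the shares were 61.5% (60.6 to 62.5%) and 60.3% (59.4 to 61.2%).

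The largest runs lay at partly different places in the lines. The largest in H82 was a chain of 41 regions over 370 kb between ENSG00000289503 and KCNH5 on chromosome 14, which covered 88.1% of its span. H146 had 11 regions there, covering 1.60%, and 7 of the 41 were shared. The next, 21 regions over 110 kb between OR4E1 and DAD1, lay in the T-cell receptor alpha and delta locus, covered 84.7% of its span and had 0 H146 regions. The third, 19 regions over 55.4 kb between the galanin receptor gene GALR1 and the zinc finger gene SALL3 on chromosome 18, was shared in full. The largest H146 run, with 24 regions over 55.9 kb of which 18 were shared, lay at that same place. H146 also had a run of 18 regions over 53.8 kb elsewhere between GALR1 and SALL3, and one of 19 regions over 48.0 kb beyond SOX2, which encodes a transcription factor of neural progenitors. Of the SOX2-flanking run 11 regions were shared, and H82 had 13 regions in it.

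Across stretches the lines had largely the same richness. Over the 191 stretches of 1 Mb or more, region densities of H82 and H146 had a Spearman correlation of 0.81 and a Pearson correlation of 0.85, which are descriptions over points that share their sequence and length in both atlases. The density ran from 0.787 to 134 regions per Mb in H82, with a median of 27.3, and from 0.787 to 179 in H146, with a median of 26.1. Both highest values belonged to the stretch from TMEM121 to the end of chromosome 14, which holds 166 immune receptor genes. The 85 richest stretches of each line held 38.8% of the H82 and 42.0% of the H146 desert regions, and 65 stretches were among the richest of both. Of all 847 stretches, 38 had no region in either line, 30 had H82 regions alone and 15 had H146 regions alone.

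The stretches with most regions were rich in both lines. Between CELF4 and PIK3C3 on chromosome 18, flanked by genes of an RNA-binding protein of neurons and of the class III phosphatidylinositol kinase, lay 252 H82 and 355 H146 regions (log2 ratio -0.49, interval -0.73 to -0.26). GALR1 to SALL3 held 156 and 205 regions, and all 156 of H82 were shared. SOCS6 to CBLN2, also on chromosome 18, held 124 and 189. Of the richest stretches off chromosome 18, SLITRK5 to GPC5 held 179 and 176 regions, AGA to TENM3 held 178 and 199, and OTOL1 to SI held 198 and 156 (log2 ratio 0.34, interval 0.03 to 0.66). The rest of this group were not deserts in the ordinary sense. The stretch from TMEM121 to the end of chromosome 14, with 148 and 198 regions, holds 166 immunoglobulin or T-cell receptor genes, which GENCODE does not type as protein coding. The short arm of chromosome 21 up to TPTE held 234 and 167 regions.

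Where the lines differed by at least 2-fold, H82 was mostly the higher. Of 628 stretches with 10 or more regions, 71 (11.3%) had at least 2-fold more in H82 and 8 (1.27%) at least 2-fold more in H146, after 0.5 was added to each number, while 549 lay within that range. Among 1 Mb bins of the whole autosomal genome with 10 or more regions, the background, 9.57% were called higher in H82 and 0.292% higher in H146, so the desert shares were near the genome's for H82 and above it for H146, on 8 stretches. The median stretch held 15 H82 and 11 H146 regions, and the bins were not matched to the stretches in number of regions. Among regions of at least 500 bp the numbers were 40 stretches higher in H82 and 18 higher in H146. None of the 71 lay on chromosomes 17 or 18.

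The extremes were local. Between CHD6, which encodes a chromatin remodeler, and PTPRT, a receptor phosphatase of neurons, H82 had 23 regions and H146 had 1 (log2 ratio 3.97, counting interval of the raw numbers 1.90 to 9.89). USP25 to CXADR had 43 and 3 (3.64, 2.20 to 6.17), and all 3 of H146 were shared. Between MAT2B and TENM2, which encodes a teneurin synaptic adhesion protein, there were 54 and 5 regions (3.31, 2.12 to 5.11). CDC5L to SUPT3H and PDHA2 to STPG2 had 14 and 1 regions each (3.27, 1.09 to 9.21). The stretches furthest towards H146 were milder. MGAT4C to C12orf50 had 6 and 20 regions (-1.66, -3.34 to -0.37) and IPO11 to HTR1A, the latter a serotonin receptor gene, had 10 and 25 (-1.28, -2.54 to -0.21). For OXSM to LRRC3B (4 and 11), IZUMO3 to TUSC1 (4 and 10) and ST6GAL2 to RGPD4 (6 and 14) the interval included 0.

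**Figure D3:**
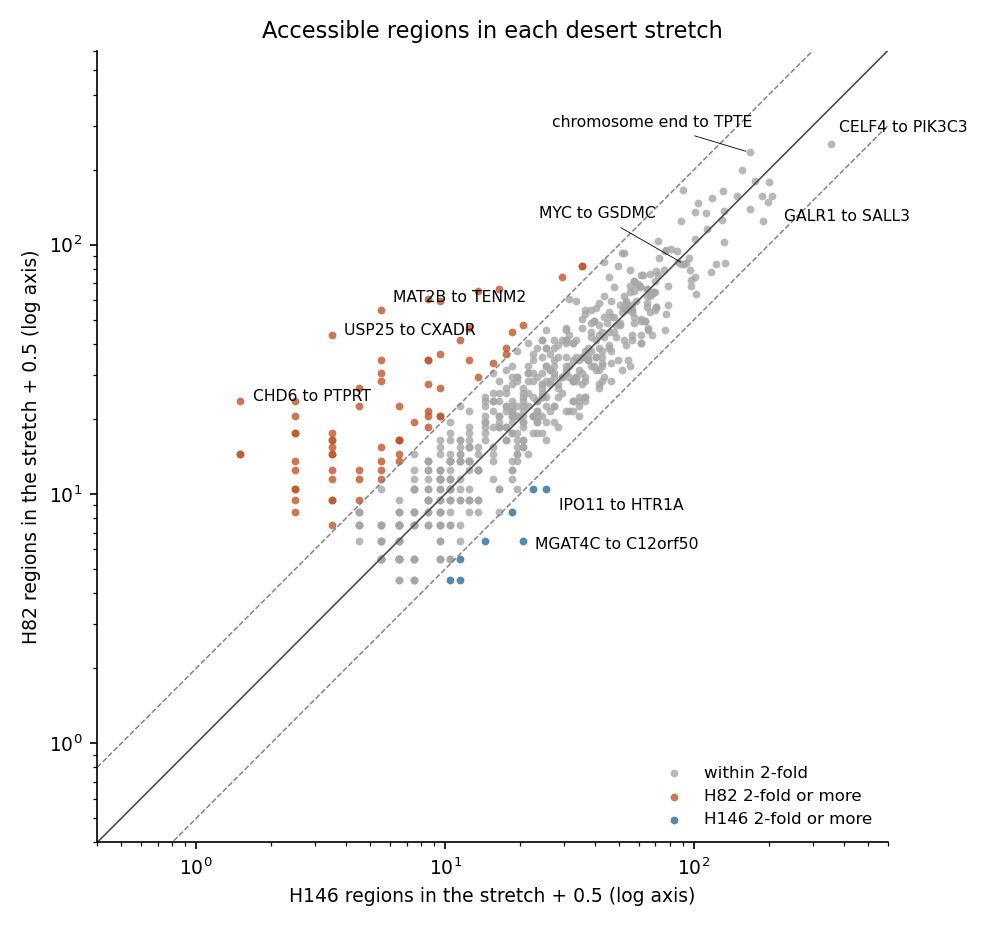
Number of regions in H82 (vertical axis) against H146 (horizontal axis), each plus 0.5 on log axes, for the 628 desert stretches with 10 or more regions, named by the genes at their borders. Dashed lines mark 2-fold, and 71 stretches lie above the upper line, 8 lie below the lower line and 549 lie between them.

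The genes at the borders were examined by lists. The list of developmental transcription factors had 96 genes at the edge of 113 stretches, which held 42.8 H82 and 36.9 H146 regions per Mb, denser than the 35.0 and 32.1 of all stretches. Their H82 to H146 ratio was 1.16 (log2 0.22, interval 0.14 to 0.30), and 12 of the 86 with 10 or more regions (14.0%) were 2-fold higher in H82 and 0 in H146, against 11.3% and 1.27% of all stretches. Named after their values were seen, these included TBX3 to MED13L with 60 and 8 regions, ZNF536 to TSHZ3 with 17 and 2, and LMO4 to PKN2 with 47 and 20. TBX3 encodes a T-box factor of limb and heart and LMO4 a LIM-domain cofactor. Other long deserts of the list had like numbers in both lines, such as DCDC2C to SOX11 with 75 and 71, RNF144A to ID2 with 64 and 68 and KCNJ2 to SOX9 with 56 and 70.

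The neuronal adhesion and synapse list had 96 genes at the edge of 131 stretches, which were long (174 Mb in all) and held 30.2 regions per Mb in each line. The log2 ratio of their numbers was 0.00 (interval -0.05 to 0.06), and 0.06 without chromosome 18. Of 117 stretches with 10 or more regions 9 (7.69%) were 2-fold higher in H82, TENM4 to FAM181B with 66 and 16 and CDH11 to CDH5 with 22 and 4 among them, and 0 in H146. The protocadherin stretch PCDH9 to KLHL1 had 136 and 131 regions, and SPRY2 to SLITRK1 had 157 and 187. The lists were chosen with earlier results known and give a description alone.

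Of 35 annotated genes in a list drawn from the study, 10 border a desert stretch, against 1477 of all 19111 protein-coding genes. Their 13 stretches held 231 H82 and 212 H146 regions, a ratio of 1.09 as over all stretches (log2 0.12, interval -0.15 to 0.40). MYC, the proto-oncogene that borders a well-known enhancer-rich desert, had 83 H82 and 91 H146 regions on the side of GSDMC (log2 ratio -0.13, interval -0.58 to 0.31), of which 59 were shared in each line. PAX1 to FOXA2 had 2 and 4 regions. NEUROD1, OTX2, FOXA1 and INSM1 border no stretch. The stretches beside SMARCA2, the gene of an FHD-286 target, had 7 and 6 regions towards DMRT2 and 13 and 12 towards VLDLR.

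Line-only desert regions differed in their words. Short words were counted on both strands, palindromes once, in shared and line-only regions, and 9 of them are reported here. TAATCC, the OTX2 word, occurred 1.31 times per kb in H82-only desert regions (interval 1.27 to 1.34) and 0.418 times in H146-only ones (0.392 to 0.444), a log2 ratio of 1.64 (1.55 to 1.74), with H82 higher on 22 of 22 chromosomes. It occurred 0.441 and 0.413 times per kb in the shared regions of H82 and H146 and 0.585 times per kb of all desert bases. Of H82-only desert regions 46.4% held it, and of H146-only ones 13.9%. H82-only regions were also wider, at medians of 372 against 317 bp, and shares of regions, here and below, are not corrected for width. The letters of TAATCC in reverse order gave a log2 ratio of 0.42 (0.32 to 0.52). CAGATG, the NEUROD1-type E-box, occurred 1.30 and 0.849 times per kb (log2 ratio 0.61, 0.54 to 0.69, higher in H82 on 21 of 22 chromosomes) and its reverse gave -0.02 (-0.16 to 0.13). Over all desert bases it occurred 0.618 times per kb.

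The FOXA word moved the other way. TGTTTAC was found at 0.163 per kb of H82-only desert regions and at 0.421 per kb of H146-only ones, a log2 ratio of -1.37 (-1.51 to -1.23), with H82 higher on 1 of 22 chromosomes, while its reverse gave -0.55 (-0.69 to -0.41). It occurred 0.263 and 0.276 times per kb in shared regions and 0.180 times per kb of all desert bases. It was held by 7.67% of the H82-only and 14.2% of the H146-only regions. The SOX word AACAAT had a log2 ratio of -0.80 (-0.88 to -0.72), with -0.34 for its reverse.

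The AP-1 word TGANTCA had a log2 ratio of -0.30 (-0.42 to -0.19), turning to 0.08 (-0.05 to 0.20) by share of regions. The POU octamer ATGCAAAT had one of -0.50 (-0.75 to -0.25), with -0.57 (-1.43 to 0.30) for its reverse and -0.20 (-0.46 to 0.06) by share of regions. How far the greater width of H82-only regions sets the values by share was not tested. The TEAD word GGAATG had 0.41 (0.32 to 0.51), but its reverse had 0.56 (0.43 to 0.69). Per kb the octamer occurred 0.0701 and 0.0989 times in H82-only and H146-only regions, and the TEAD word 0.689 and 0.517 times. Both words were thus below their densities over all desert bases, 0.128 and 0.704 per kb. The NFI word (TTGGC, 5 free bases, GCCAA) had 11 and 7 matches in the regions of H82 and H146 alone, too few for a comparison. The CTCF word had a log2 ratio of -0.71 (-1.01 to -0.41), but -0.22 (-0.52 to 0.08) by share of regions and -0.30 (-0.67 to 0.08) in the central 200 bp. It was held by 5.49% and 5.83% of shared and 2.37% and 2.76% of line-only regions of H82 and H146. Shared regions are wider. Per kb it was at 0.0851 in shared and 0.0466 in line-only H82 regions, and at 0.0841 and 0.0763 in H146, where the log2 ratio of line-only over shared of -0.14 had an interval that includes 0 (-0.38 to 0.09). Outside deserts, in intergenic regions 10 to 250 kb from a TSS, the log2 ratios were close to the desert values for OTX2 (1.58), FOXA (-1.32), SOX (-0.75) and the POU octamer (-0.45). CAGATG stood at 0.51 there. The AP-1 word, at -0.51 (-0.58 to -0.44), and the CTCF word, at -0.99 (-1.14 to -0.84), were farther from 0 than in deserts. The TEAD word was nearer, at 0.11.

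**Figure D4:**
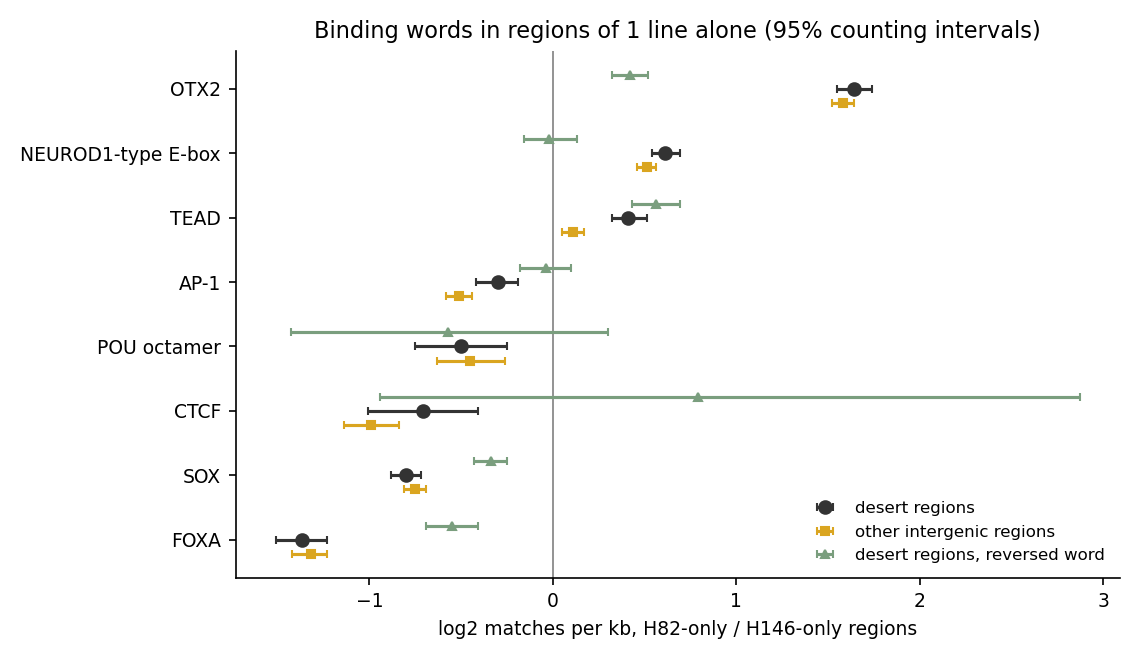
The log2 ratio of matches per kb in H82-only over H146-only regions (horizontal axis) for 8 of the 9 words reported, named by their factor (vertical axis, NFI left out for its few matches). Circles are desert regions, squares other intergenic regions and triangles the reversed word in desert regions, with 95% counting intervals. OTX2 stands at 1.64 and FOXA at -1.37 in deserts, each farther from 0 than its reversed word. TEAD at 0.41 (reversed 0.56), the POU octamer at -0.50 (reversed -0.57) and CTCF at -0.71 (reversed 0.79, interval -0.94 to 2.87) are not.

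Desert regions are far from coding genes and not from every gene. Genes of other types cover 29.5% of the desert bases, 4861 genes in all, and 36.6% of H82 and 36.3% of H146 desert regions lay over their bodies. Most of these regions lay over long non-coding RNA (lncRNA) genes, which number 2107 of the 4861 and held 34.1% and 33.9% of the desert regions on 28.4% of the bases. Within 1 kb of a lncRNA TSS lay 566 H82 and 530 H146 regions, which were wide (medians 691.5 and 715.5 bp) and often shared, 75.6% and 80.0%, against 60.5% and 65.4% of those farther away. Immunoglobulin or T-cell receptor genes accounted for 89 and 104 regions and rRNA genes for 8 and 6. The desert regions were richer in G and C than the deserts around them, 46.2% in shared and 44.6% in line-only H82 regions and 45.6% and 43.0% in H146, against 37.6% of all desert bases, and poorer than the shared regions elsewhere, which stood at 54.0% and 53.3%.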

How the data were processed

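ATAC-seq was measured in 13 libraries of H82 and H146 cells. The authors trimmed reads with Trim Galore (version 0.4.4), aligned them to hg38 with bowtie2 (version 2.3.4), removed duplicates and called peaks per library with MACS2. They dropped blacklisted peaks and merged the rest within 500 bp over all libraries of a line. The deposited files hold 1 pooled atlas per line with coordinates in bp as their unit and no counts, so library depth is not given in them. Columns of per-sample values left aside numbered 0.

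The GENCODE release 44 annotation, with 19111 protein-coding genes on 22 autosomes, 1 TSS per gene, set the desert stretches, and sequences came from hg38. Regions were shared if overlapped by at least 1 bp. Python 3.11.15, pandas 2.3.3, NumPy 2.4.6, SciPy 1.17.1, pysam 0.24.0 and bedtools 2.31.1 were used, and functions were tested on simulated data. The bedtools classing of regions differed for 0 regions. Intervals at 95% are exact binomial, Poisson or order-statistic, except for the difference in neighbour share between the lines. That interval is a normal approximation that takes regions as independent, although having a neighbour is mutual between regions. The named stretches and regions were the 5 with most regions per line, the 5 highest and 5 lowest log2 ratios, the 3 widest regions and 3 largest runs per line, the farthest region per line and stretches beside the lineage genes. Members, lists and words were chosen with earlier results of these data known. A count test could not be used, and alternatives are given in the closing section. Some results are not reported here.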

Additional observations from a re-analysis of the deposited data

Results flagged for a closer look

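Chromosome X was outside the rule and entered no comparison. By the same distance rule it held 535 H82 regions of 5628 and 441 H146 regions of 3970, which drew attention as signal in data the comparisons did not use. The atlases have no control sample to set beside these numbers.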

How the results depend on the processing

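No paired analysis was possible because each line has 1 pooled atlas without columns for libraries, and for the same reason no replicate could be left out and FHD-286 could not be tested. The log2 ratio of desert region numbers was 0.18 with deserts over 100 kb from a TSS, 0.07 over 500 kb, 0.02 for regions of at least 500 bp and 0.17 without chromosome 18. The difference in median width was 0 bp for regions of at least 500 bp. The H82 overlapped share was 59.9% over 100 kb, 61.8% over 500 kb, 65.2% for regions of at least 500 bp, 51.7% when 50% of both regions had to overlap and 58.9% without chromosome 18. The H146 share was 67.1% over 100 kb, 64.5% over 500 kb, 64.9% away from genes of every type, 56.4% with the 50% overlap and 64.8% without stretches over assembly gaps, immune receptor or rRNA genes. The difference in regions with a neighbour was 2.41 points over 100 kb and 2.61 without chromosome 18, and in 4 alternatives, from 0.70 to 1.04 points, the interval included 0. Stretches differing 2-fold numbered 187 over 100 kb, 47 over 500 kb and 49 with at least 20 regions each, against 79, and regions of at least 500 bp turned the split of 71 higher in H82 and 8 in H146 into 40 and 18. The alternatives without chromosome 18 and without the 38 stretches over gaps, immune receptor or rRNA genes were chosen after seeing the data. Of 90 alternatives for words 4 had the opposite sign, TGANTCA at 0.08 by share of regions with a match and 3 of NFI, whose own interval includes 0. The cause of each change was not tested beyond the alternative's own construction. Unknown depth limits all numbers of narrow regions.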

Other observations

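Stretches that hold assembly gaps, immune receptor or rRNA genes contributed 369 TAATCC matches in 800 H82-only desert regions, 6.69% of such matches. With stretches left out that hold a gap of over 10 kb, an immune receptor gene or an rRNA gene, the log2 ratio of H82-only over H146-only regions was 1.69. In the central 200 bp of the desert regions the contrast of the OTX2 word was 2.20 (interval 2.07 to 2.34) and that of the FOXA word -1.71 (-1.93 to -1.50), both farther from 0 than over whole regions, and in regions of at least 500 bp they were 1.24 and -0.90.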
